A study of Mus musculus with 6 samples.

Results

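Interferon-stimulated genes are the genes that cells switch on when an interferon binds its receptor, and 34 of them were followed here in prostates of irradiated mice that differed in the germline gene for p53. The 34 genes were picked by symbol as well-known targets of type I and type II interferons. All 34 were found among the 47719 gene identifiers measured, and 33 of them had a mean of at least 1 FPKM (a number of fragments divided by exon length and by sequencing depth) over the 6 mice, as did 13818 genes in all. The gene left out by this minimum was Oas3, which read between 0.126 and 0.442 FPKM. Zbp1, Oas2, Mx2, Ifi44 and Gbp7 passed it with a mean below 1 in 1 or more genotypes, so their differences rest on low values.

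All mice were of the strain B6.129S4-Trp53tm3.1Tyj/J and carried a Trp53 allele with the R270H substitution on 0, 1 or 2 chromosomes. Mice 39 and 41 were wildtype (Trp53+/+), mice 37 and 40 were heterozygous (Trp53R270H/+) and mice 47 and 49 were homozygous (Trp53R270H/R270H), the numbers being those of the animals. Every mouse was about 3 months old, received 5 Gy of radiation to the whole body and gave its prostate 6 h later, so the values compare genotypes after irradiation and hold no unirradiated mouse. The RNA came from whole frozen prostate, in which fewer cells of a type and less RNA per cell cannot be told apart. A homozygous mouse has no wildtype p53 left, while a heterozygous mouse has both proteins.

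Type I interferons signal through the kinases JAK1 and TYK2 to a complex with STAT2 and IRF9 that binds the interferon-stimulated response element (ISRE) in front of its targets. Interferon gamma signals through JAK1 and JAK2 and acts at the gamma-activated site (GAS). The targets include cytosolic RNA sensors, proteins that block viral translation and budding, GTPases that attack the vacuoles of intracellular parasites, and brakes such as USP18 that end the response. DNA that leaks into the cytosol after irradiation can start the same programme through cGAS and STING.

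Promoter windows of RefSeq on GRCm38.p6, which run from 250 bases before to 50 bases after the start of each gene, were found for 26 of the 34 genes. A core of the ISRE, written GAAA, any 2 bases and GAAA again, and searched on both strands, lay in the window of 17 of these 26 genes (65.4%), while 3.99% of all 27025 genes with a window held it. The GAS core TTCNNNGAA, which reads the same on both strands and can share bases with an ISRE core, was in 7 of the 26 windows (26.9%) and in 9.55% of all genes. The windows of Ifi35, Ifi44, Ifit2, Irf7, Irf9, Oasl1, Oasl2, Trim25 and Xaf1 held no ISRE core. Usp18, Dhx58, Zbp1, Oas2, Mx1, Mx2, Parp9 and Parp14 had no window in the table used.

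The stretch from 150 bases before to 20 bases after the start is shown for 6 genes, 5′ to 3′ along the transcribed strand and with ISRE cores in capitals. Isg15 and Oas1a are shown as genes with cores that overlap each other, Ifit1 as one with 2 separate cores, and Ddx58, Igtp and Xaf1 as genes with an unadjusted p under 0.05 between genotypes, described further on.
Isg15 chr4:156200799-156200968 (minus strand): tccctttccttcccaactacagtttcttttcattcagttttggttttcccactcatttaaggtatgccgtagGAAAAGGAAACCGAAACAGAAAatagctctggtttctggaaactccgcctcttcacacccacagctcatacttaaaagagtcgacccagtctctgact
Oas1a chr5:120907506-120907675 (minus strand): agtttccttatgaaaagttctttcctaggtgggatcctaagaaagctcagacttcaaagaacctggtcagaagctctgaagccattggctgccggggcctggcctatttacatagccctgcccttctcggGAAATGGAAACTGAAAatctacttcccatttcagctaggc
Ifit1 chr19:34640739-34640908 (plus strand): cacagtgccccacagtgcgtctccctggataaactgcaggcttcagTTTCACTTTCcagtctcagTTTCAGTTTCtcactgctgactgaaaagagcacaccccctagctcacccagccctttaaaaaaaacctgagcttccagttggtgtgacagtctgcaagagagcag
Ddx58 chr4:40239806-40239975 (minus strand): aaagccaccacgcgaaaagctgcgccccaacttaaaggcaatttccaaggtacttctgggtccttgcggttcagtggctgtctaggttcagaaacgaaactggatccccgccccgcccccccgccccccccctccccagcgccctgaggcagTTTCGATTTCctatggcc
Igtp chr11:58199406-58199575 (plus strand): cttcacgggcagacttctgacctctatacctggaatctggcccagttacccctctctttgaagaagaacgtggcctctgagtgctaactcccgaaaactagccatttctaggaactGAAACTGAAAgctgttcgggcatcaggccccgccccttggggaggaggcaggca
Xaf1 chr11:72301479-72301648 (plus strand): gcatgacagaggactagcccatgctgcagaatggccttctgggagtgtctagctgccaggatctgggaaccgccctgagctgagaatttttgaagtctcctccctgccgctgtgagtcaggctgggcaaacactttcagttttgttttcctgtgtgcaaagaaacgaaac
The 3 overlapping cores of Isg15 and the 2 cores of Ifit1 lay before the start of transcription. The single core of Ddx58 began at base 3 of the transcript, counted from 1, on the opposite strand. Igtp had 1 core that came shortly after a GAS core, and the Xaf1 stretch had none. A match of letters describes the window and does not show that a factor was bound.

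**Figure D1:**
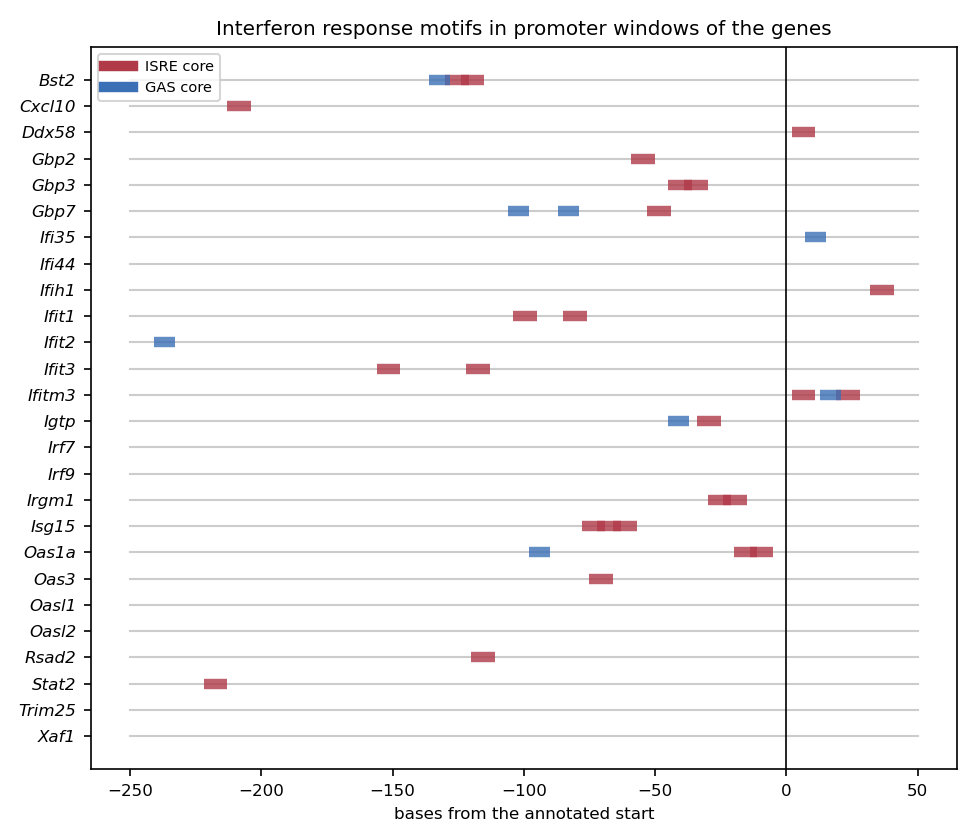
Positions of ISRE and GAS cores relative to the start of transcription (bases, horizontal axis) in the RefSeq promoter windows of the interferon-stimulated genes, 1 row per gene. Of the 26 genes with a window, 17 hold an ISRE core, and these cores lie on both sides of the start.

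Sequencing depth, estimated from the spacing of the lowest values, lay between 0.790 and 1.07 of that of wildtype mouse 39, and 13452 to 13827 genes per mouse reached 1 FPKM. Trp53 itself read 17.3 to 21.4 FPKM in the 6 mice, a gene-level value that does not separate the alleles and so does not check a genotype. Markers of the prostate set homozygous mouse 47 apart. Pbsn (probasin, secreted by luminal cells) read 257 FPKM in mouse 47 and 7329 to 11512 in the other mice, and Tgm4, Msmb and Hoxb13 of the same list were also lowest there, while Spink1 and Krt8 lay within the range of the other mice. The 6 seminal vesicle secretory genes were divided. Svs1, Svs3a and Svs6 were highest in mouse 47, with Svs6 at 26147 FPKM against 28.6 to 1021 elsewhere. But Svs2, Svs4 and Svs5 were listed at 0 there, where Svs5 read 1731 to 28678 in the other mice. Svs2 was listed at 0 in homozygous mouse 49 as well. Each deposited value carried the status OK, but an exact 0 can be a failed estimate all the same. The sum of the 6 genes was 42604 FPKM in mouse 47 and 3363 to 53789 in the others. Wildtype mouse 39 had the lowest Svs6 and the highest summed level of 5 neutrophil markers, 9.20 FPKM against 0.313 to 2.40. Results are therefore also given without these mice.

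**Figure D2:**
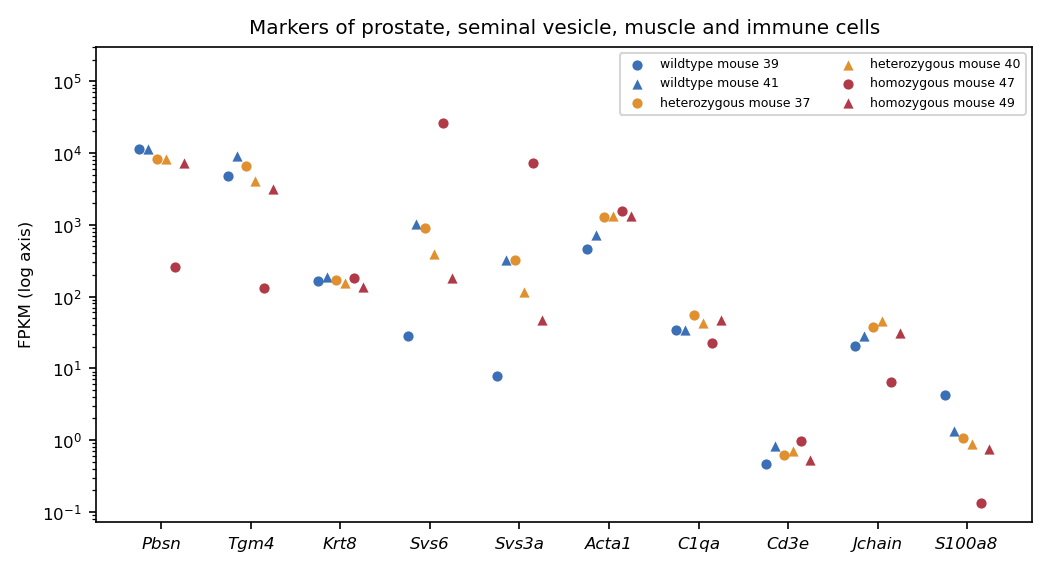
FPKM of tissue and cell type markers (log axis) in each of the 6 mice, with points coloured by genotype. Homozygous mouse 47 has the lowest Pbsn, at 257 FPKM, and the highest Svs6, at 26147 FPKM, while its Krt8 lies within the range of the other mice. Svs2, Svs4 and Svs5, listed at 0 in that mouse, are not plotted.

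The interferon-stimulated genes were expressed in every prostate. Ifitm3, a membrane protein that blocks the entry of viruses, was the most abundant at 112 to 167 FPKM, followed by Bst2 (tetherin, which holds budding virus at the cell surface) at 25.4 to 37.3. The 3 signalling factors were also well above the minimum. Irf9, the DNA-binding part of the type I complex, lay at 17.4 to 24.6 FPKM, Stat2 at 12.9 to 18.4 and Irf7, the factor that amplifies interferon production, at 7.89 to 14.4. Genes that are low in unstimulated tissue read a few FPKM: the IFIT family, which recognises foreign RNA caps, between 2.09 and 7.16, Rsad2 (viperin) between 1.84 and 3.84 and the GTPase Mx1 between 2.61 and 4.38.

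**Figure D3:**
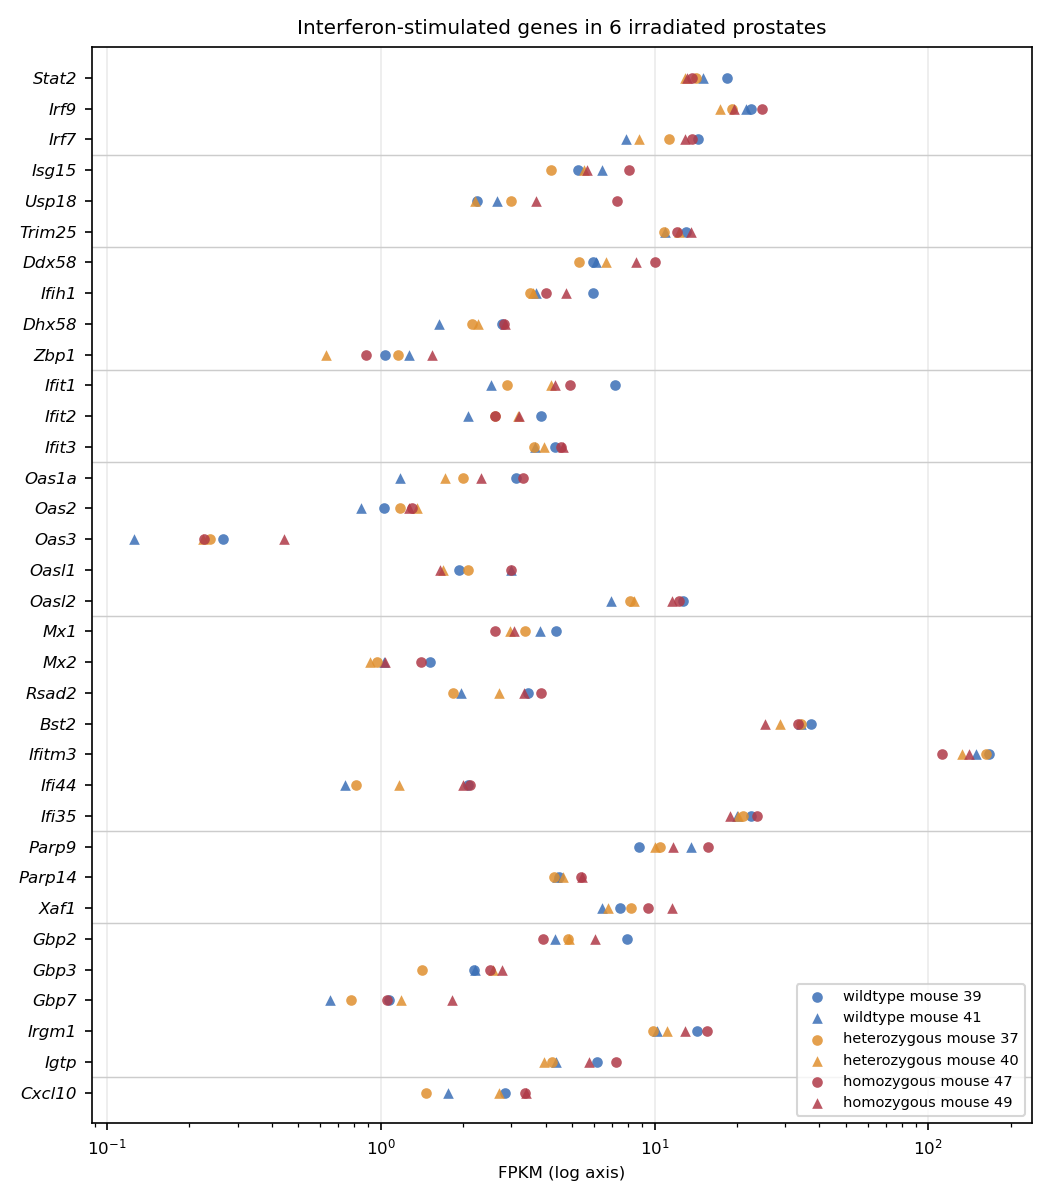
FPKM of each interferon-stimulated gene (log axis) in each of the 6 mice, grouped by role and coloured by genotype. Levels run from 0.126 FPKM for Oas3 to 167 FPKM for Ifitm3, and no gene sets the 3 genotypes apart in the order of the number of R270H alleles.

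The first question was whether the 3 genotypes differed. Log2(FPKM + 0.1) was fitted with limma for the 13818 genes, and p-values were adjusted by Benjamini-Hochberg over all of them. None of the 33 genes tested had an adjusted p under 0.05 in the limma F-test, where 0.101% of all tested genes did. The smallest adjusted p among them was 0.339, for Ddx58. At an unadjusted p under 0.05 the limma F-test named 3 of the 33 (Usp18, Ddx58 and Xaf1) beside 11.5% of all genes, and the same 3 also reached a 1.5-fold difference between a pair of genotypes, beside 8.31% of all genes. The share of the 33 genes was thus near that of all genes by each of these criteria. An F-test on each gene alone gave 0 genes by adjusted p as well. The number at an unadjusted p under 0.05 was 6 without wildtype mouse 39 (8.54% of all genes in the same fit) and 5 without wildtype mouse 41 (10.2%). It was 1 without heterozygous mouse 40 (8.76%) or homozygous mouse 47 (8.12%).

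Targets of the same interferons can move together, so the genes counted below are not independent observations, and each genotype holds 2 mice. Homozygous and heterozygous mice were the pair in which most of the genes pointed one way. The difference was above 0 for 29 of the 33 genes (45.7% of all genes), with a median of 0.39 on the log2 scale beside -0.03 over all genes. For 20 of them both homozygous mice lay above both heterozygous mice (18.0% of all genes), and for none did both lie below (24.1% of all genes). None had an adjusted p under 0.05 in limma (0.0145% of all genes), and 4 had an unadjusted one (6.39% of all genes). These 4, Usp18, Ddx58, Xaf1 and Igtp, were higher in homozygous mice, where 1.97% of all genes were called higher and 4.42% lower. Usp18, Ddx58, Rsad2, Ifi44, Igtp and Cxcl10 differed by at least 1.5-fold, 6 of 33 higher (3.31% of all genes) and 0 lower (5.54%). The median lay between 0.30 and 0.39 when any 1 of the 6 mice was left out, and at 0.30 without mice 39 and 47 together, a choice made after seeing the data. It was 0.26 with a pseudocount of 1. The number at an unadjusted p under 0.05 fell in some of the fits with 1 mouse left out and rose in others. The share of all genes moved as well.

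Usp18 encodes the protease that removes ISG15 from proteins and blocks the type I receptor. It read 7.30 and 3.70 FPKM in the homozygous mice, against 2.98 and 2.21 in the heterozygous and 2.25 and 2.67 in the wildtype mice. Both homozygous mice were above the other 4, with a 1.97-fold gap between them. The log2 difference was 0.99 (SE 0.35) from heterozygous mice, with an adjusted p of 0.707 in limma, and 1.06 (SE 0.35) from wildtype mice, with an adjusted p of 0.225 in limma. Without homozygous mouse 47 these differences were 0.51 and 0.58.

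Ddx58 encodes RIG-I, which senses uncapped viral RNA in the cytosol. Its level was 10.04 and 8.59 FPKM in the homozygous mice, against 5.31 and 6.65 in the heterozygous and 5.96 and 6.12 in the wildtype mice. Both homozygous values stood above the other 4, and the wildtype and heterozygous mice overlapped. The difference on the log2 scale was 0.63 (SE 0.16, adjusted p = 0.707 in limma) from heterozygous and 0.61 (SE 0.16, adjusted p = 0.180 in limma) from wildtype mice. Leaving out mice moved the difference from wildtype mice within 0.48 and 0.72. The related sensor genes Ifih1 (MDA5) and Dhx58 (LGP2) read 3.51 to 5.96 and 1.63 to 2.85 FPKM over the 6 mice. For Dhx58 both homozygous mice, at 2.81 and 2.85, lay just above wildtype mouse 39 at 2.78.

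Xaf1, an interferon-inducible gene whose product favours apoptosis, was at 9.47 and 11.6 FPKM in the homozygous mice, against 8.18 and 6.77 in the heterozygous and 7.50 and 6.44 in the wildtype mice. The homozygous mice did not overlap the other genotypes. Their log2 difference was 0.59 (SE 0.17, adjusted p = 0.201 in limma) from wildtype mice and 0.49 (SE 0.17, adjusted p = 0.707 in limma) from heterozygous mice. The fold from wildtype mice lay just inside the 1.5-fold criterion. Xaf1 lies on chromosome 11 from 72301629 to 72313733 of GRCm38, 2.71 Mb from Trp53. For a gene this near, the effect of the R270H allele and that of linked sequence from the 129S4 donor strain cannot be told apart. The others of the 34 genes on that chromosome were farther away. Igtp lay at 11.4 Mb, Trim25 at 19.4 Mb, Irgm1 at 20.7 Mb, Dhx58 at 31.1 Mb and Ifi35 at 31.9 Mb. How far the donor sequence reaches is not given in the sources used here, so the same limit may hold for them.

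Igtp, a GTPase induced by interferon gamma, read 7.23 and 5.75 FPKM in the homozygous mice, against 4.22 and 3.95 in the heterozygous and 6.18 and 4.35 in the wildtype mice. The heterozygous mice were below the other 4, and the homozygous and wildtype mice overlapped. Its log2 difference was 0.65 between homozygous and heterozygous mice (SE 0.22, adjusted p = 0.707 in limma) and 0.31 between homozygous and wildtype mice (SE 0.22, adjusted p = 0.495 in limma). Cxcl10, the chemokine that draws T cells to inflamed tissue, was at 3.36 and 3.41 FPKM in the homozygous mice and at 1.46 and 2.69 in the heterozygous mice. The wildtype mice had 2.84 and 1.76 FPKM of Cxcl10, so both homozygous mice were above the other 4.

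Against wildtype mice the homozygous mice were more divided. The difference was above 0 for 23 of the 33 genes (45.0% of all genes), with a median of 0.23 beside -0.04 over all genes. Both homozygous mice lay above both wildtype mice for 9 genes (21.3% of all genes) and below them for 4 (28.7% of all genes). None of the 33 had an adjusted p under 0.05 in limma (0.384% of all genes). At an unadjusted p under 0.05 there were 4 genes (18.0% of all genes), with Usp18, Ddx58 and Xaf1 higher and Mx1 lower (8.65% and 9.32% of all genes). A difference of at least 1.5-fold was seen for 5 genes higher (9.68% of all genes), namely Usp18, Ddx58, Ifi44, Xaf1 and Gbp7, and for 0 lower (7.60%). When wildtype mouse 41 was left out the median was -0.011, with 16 of 33 genes above 0 (46.0% of all genes in the same fit). When wildtype mouse 39 was left out the median was 0.32, with 26 of 33 above 0 (45.4%). Its sign therefore rested on a single wildtype mouse. The number at an unadjusted p was 8 without wildtype mouse 39 (13.8% of all genes in the same fit) and 2 without homozygous mouse 47 (11.7%).

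Mx1, a GTPase that traps viral nucleocapsids, was among the genes with the opposite order. It read 4.38 and 3.82 FPKM in wildtype mice, 3.36 and 2.96 in those with 1 mutant allele and 2.61 and 3.07 in homozygous mice. Both wildtype mice were above the other 4, and the heterozygous and homozygous mice overlapped. The log2 difference of homozygous from wildtype mice was -0.52 (SE 0.18, adjusted p = 0.242 in limma), and it was -0.31 without mice 39 and 47 together. Stat2, at 18.4 and 15.1 FPKM in wildtype mice and 13.7 and 13.2 in homozygous mice, Bst2 and Ifitm3 were the other genes below wildtype in both homozygous mice.

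Differences between heterozygous and wildtype mice ran from -0.39 to 0.40 on the log2 scale. None of the 33 genes had an adjusted p under 0.05 in limma, and none an unadjusted one, beside 0% and 6.87% of all genes. The difference was above 0 for 7 of the 33 genes (47.2% of all genes), and its median was -0.18 beside -0.01. After quantile normalization the difference was above 0 for 2 of 33 (44.0% of all genes). Both heterozygous mice lay below both wildtype mice for Stat2, Irf9, Ifih1, Mx1, Mx2 and Igtp, 6 of the 33 (19.9% of all genes), and above them for Oas2 alone (19.2%). Without wildtype mouse 39 the median was 0.039, with 18 of 33 genes above 0 (45.1% of all genes in the same fit). Without wildtype mouse 41 it was -0.30, with 3 above 0 (51.9%). The 3 comparisons share mice, so their differences are not independent of each other.

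**Figure D4:**
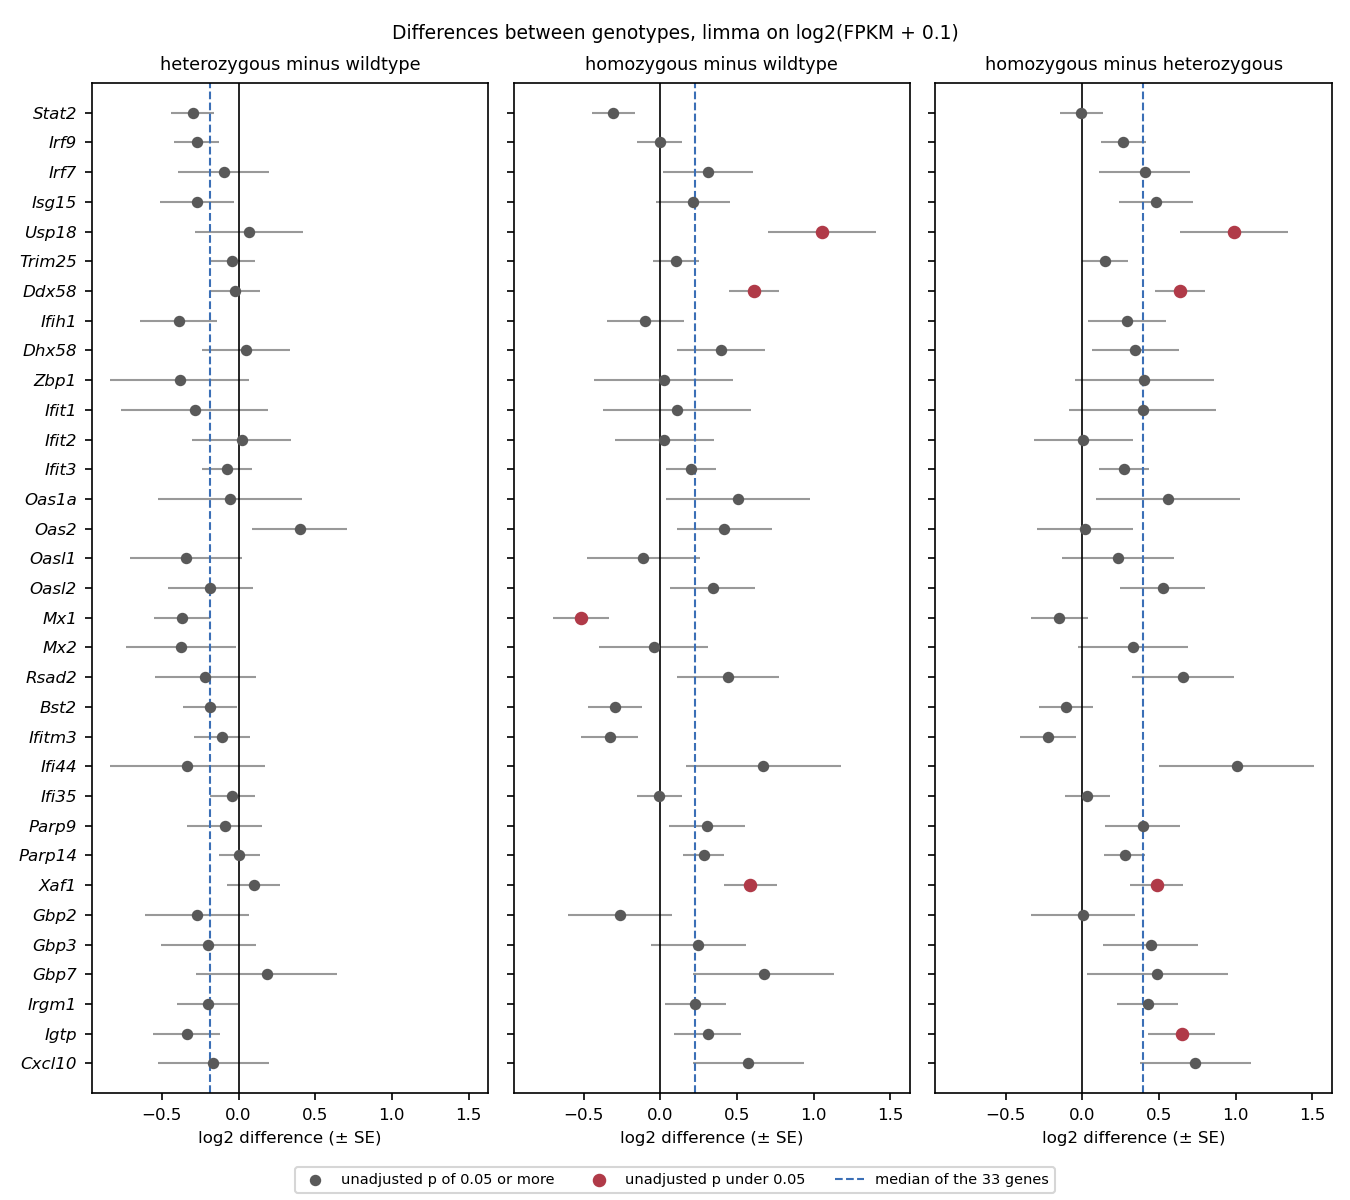
Log2 differences of the 33 tested genes for each pair of genotypes (horizontal axis, points with bars of ± 1 SE from limma, n = 2 mice per genotype), with a dashed line at the median of the 33. Red points had an unadjusted p under 0.05, and the medians are -0.18, 0.23 and 0.39 from the first panel to the last.

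With all 6 mice, none of the 33 genes gave 3 separate levels in the order of mutant alleles. Of the 33, 0 were higher with each added R270H allele (3.85% of all genes) and 0 lower (4.98% of all genes). Leaving out a mouse makes such an order easier for every gene. Without wildtype mouse 39, 7 of the 33 were higher with each allele (6.22% of all genes) and 0 lower (11.1%), and without wildtype mouse 41 these were 1 (6.48%) and 0 (7.73%). Set beside the mean over the 6 mice, the median of the 33 genes was 0.24 and 0.17 in homozygous mice 47 and 49 and 0.22 in wildtype mouse 39. It was -0.18 in wildtype mouse 41 and -0.13 and -0.12 in heterozygous mice 37 and 40. The SD of this median between mice of a genotype, pooled over the genotypes, was 0.17. The levels of wildtype mouse 39 thus lay near those of the homozygous mice, and the levels of wildtype mouse 41 near those of the heterozygous mice, which was not tested. Of the 33 genes, 11 were highest in mouse 47 (20.5% of all genes), 11 in mouse 39 (19.2%) and 9 in mouse 49 (16.6%), while 10 were lowest in mouse 41 (13.2%) and 10 in mouse 37 (15.0%).

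The spread within the wildtype pair was the widest of the 3 pairs. Mouse 39 was above mouse 41 for 26 of the 33 genes (42.7% of all genes), with a median of 0.26 beside -0.05 over all genes. For 12 of the 33 it was at least 1.5-fold higher (7.32% of all genes). Ifit1 read 7.16 FPKM in mouse 39 and 2.53 in mouse 41, Oas1a 3.13 and 1.17, and Ifi44 2.09 and 0.737, each at least 2.67-fold apart. These genes code for an RNA cap-binding protein, an enzyme that activates RNase L and a cytosolic antiviral protein. Oasl1 and Parp9 went the other way by at least 1.5-fold (8.61% of all genes), Oasl1 from 1.94 FPKM in mouse 39 to 2.98 in mouse 41 and Parp9 from 8.77 to 13.6. Ddx58 hardly differed within this pair, at 5.96 and 6.12 FPKM.

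The median absolute difference of the 33 genes was 0.48 between the wildtype mice, where it was 0.21 over all genes. The heterozygous pair gave 0.21 (all genes 0.19) and the homozygous pair 0.26 (all genes 0.22). In the heterozygous pair 15 of the 33 genes were higher in mouse 37 (53.2% of all genes), and in the homozygous pair 19 were higher in mouse 47 (49.8% of all genes). Mice 47 and 49 thus differed in these genes about as much as in all genes. Some of their prostate and seminal vesicle markers were far apart, with Pbsn at 257 and 7329 FPKM and Svs6 at 26147 and 178. Others were not, with Krt18 at 367 and 351 FPKM and Svs2 listed at 0 in both. The part of tissue composition in these levels was not tested. The median SE of a genotype difference was 0.28 for the 33 genes and 0.19 for all genes.

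**Figure D5:**
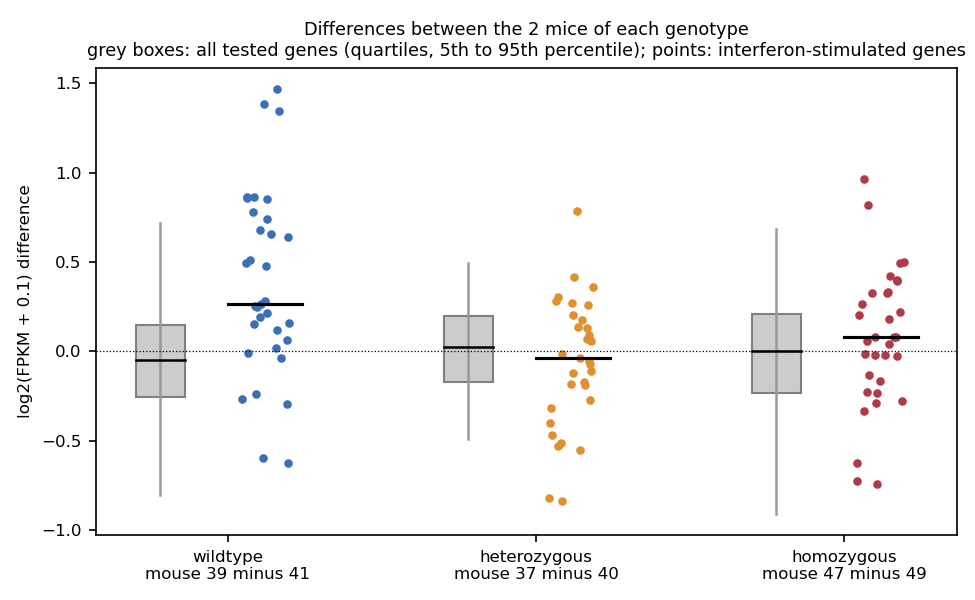
Log2(FPKM + 0.1) difference between the mice of each genotype (vertical axis) for the 33 tested genes (coloured points, line at their median) beside all 13818 tested genes (grey boxes of the quartiles, whiskers at the percentiles named in the title). The medians of the 33 genes are 0.26 in the wildtype, -0.04 in the heterozygous and 0.08 in the homozygous pair.

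Markers of other cell types were read in the same mice. The sum of 10 T and NK cell markers was 8.35 and 6.89 FPKM in the homozygous mice, against 5.37 and 6.59 in the heterozygous and 4.86 and 6.77 in the wildtype mice, and no marker was at 0. Cd3g alone gave 2.35 FPKM of the sum in mouse 47. Without it, a choice made after seeing the values, the sums were 5.99 and 6.18 FPKM in the homozygous mice and 6.32 in wildtype mouse 41, so the homozygous mice were then within the range of the others. The 10 macrophage markers summed to 79.4 and 174 FPKM in the homozygous, 187 and 151 in the heterozygous and 124 and 126 in the wildtype mice. The 7 B cell markers summed to 7.76 FPKM in homozygous mouse 47 and 34.5 in homozygous mouse 49. Their sums were 41.5 and 49.7 FPKM in the heterozygous and 24.3 and 33.1 in the wildtype mice. Jchain was the largest part of these sums, at 6.49 to 45.1 FPKM. The 8 dendritic cell markers gave 4.01 and 6.82 FPKM in the homozygous mice. They gave 6.07 and 5.63 FPKM in the heterozygous and 3.42 and 4.25 in the wildtype mice. Neutrophil markers were highest in mouse 39, as given above, and Ly6g was listed at 0 in the other mice. The 6 adipocyte markers summed to 443 and 317 FPKM in the homozygous, 265 and 311 in the heterozygous and 297 and 193 in the wildtype mice. The sum was highest in the homozygous mice and higher in mouse 39 than in mouse 41. Fabp4 alone gave 322 FPKM of the sum in mouse 47. Plin1 was above the other mice in both homozygous mice, while Cidec, Lipe and Lep were each highest in a mouse of another genotype. The 8 skeletal muscle markers summed to 1298 and 1948 FPKM in the wildtype mice and 3671 to 4447 in the mutant mice. No marker of these 2 lists was at 0. The part of these cells in the levels of the interferon-stimulated genes was not tested.

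By role, the differences between homozygous and heterozygous mice were above 0 for 2 of 3 signalling factors, with Stat2 at -0.01, beside 45.7% of all genes. They were above 0 for 3 of 3 genes of the ISG15 system (Isg15, Usp18 and the ligase Trim25), 4 of 4 nucleic acid sensors and 3 of 3 IFIT genes. The same held for 4 of 4 tested OAS genes, which make or resemble the activators of RNase L, and for Parp9, Parp14 and Xaf1. It also held for 5 of 5 GTPases induced by interferon gamma. Among the genes so counted, Ifit2, Oas2 and Gbp2 hardly differed, at 0.007, 0.019 and 0.005. The other antiviral effectors were divided, with 4 of 7 above 0. Rsad2 read 3.84 and 3.32 FPKM in homozygous and 1.84 and 2.70 in heterozygous mice, and Ifi44 2.12 and 1.99 against 0.812 and 1.16, without overlap in either gene. Both had wildtype mice on either side of the gap, with Rsad2 at 3.44 and 1.96 FPKM and Ifi44 at 2.09 and 0.737. Ifit3, the Oas1a cluster and the GBP genes have close relatives in the genome, and how fragments shared between relatives were assigned is not given in the sources used here.

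The inputs of the pathway were examined in lists of 127 further genes, of which 93 were tested. Of 18 interferon genes none passed the minimum of 1 FPKM. Ifnb1 was listed at 0 in every mouse, and Ifne, an interferon of reproductive epithelia, had the highest value, at 0.224 FPKM in mouse 47. Ifnz read at most 0.032 FPKM. The receptors were present, with Ifnar2 at 17.8 to 23.2 FPKM and Ifngr1 at 19.2 to 46.1, and so were the factors Irf2 at 21.7 to 43.0 and Irf3 at 54.1 to 87.0. Ifngr2, the signalling chain of the interferon gamma receptor, was at 11.8 and 15.4 FPKM in the homozygous mice, against 21.8 and 20.6 in the heterozygous and 24.3 and 23.9 in the wildtype mice. The homozygous mice were below the other 4, with a log2 difference from wildtype of -0.83 (SE 0.15, adjusted p = 0.117 in limma).

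Upstream of interferon, Ikbke, a kinase that activates IRF3 and IRF7, read 6.03 and 6.64 FPKM in the homozygous, 9.19 and 8.36 in the heterozygous and 10.7 and 11.1 in the wildtype mice. The 3 genotypes did not overlap and followed the number of mutant alleles, and the log2 difference of homozygous from wildtype mice was -0.78 (SE 0.13, adjusted p = 0.0911 in limma). The adaptor genes Mavs and Myd88 lay at 18.1 to 20.2 and 13.7 to 18.6 FPKM. Samhd1 and Rnaseh2c, which clear nucleic acids that would start the pathway, lay at 24.0 to 33.8 and 16.6 to 29.9 FPKM. Of the 9 tested sensors and adaptors, 3 were lower in homozygous than in wildtype mice at an unadjusted p under 0.05 (9.32% of all genes) and 0 higher (8.65%). None of the 93 tested pathway genes had an adjusted p under 0.05 in any limma comparison, and between homozygous and wildtype mice 14 were higher (8.65% of all genes) and 8 lower (9.32%) at an unadjusted one.

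A list of 59 other interferon-stimulated genes, 47 of them tested, gave values beside the 33. The most abundant were Ly6e, at 848 to 1096 FPKM, and Ifitm2, at 133 to 177. Between homozygous and wildtype mice 36 of the 47 were above 0 (45.0% of all genes), with a median of 0.24. That median was 0.13 without wildtype mouse 41 and 0.35 without wildtype mouse 39. In limma 11 of the 47 were higher and 2 lower at an unadjusted p under 0.05 (8.65% and 9.32% of all genes). Between homozygous and heterozygous mice 35 of 47 were above 0 (45.7% of all genes), with a median of 0.29. Here 8 were higher and 1 lower at an unadjusted p under 0.05 in limma (1.97% and 4.42% of all genes). Samd9l, an antiviral brake on translation, read 4.95 and 4.36 FPKM in homozygous, 2.45 and 3.21 in heterozygous and 1.81 and 2.50 in wildtype mice. Its log2 difference from wildtype was 1.09 (SE 0.24, adjusted p = 0.146 in limma). Gbp4, Phf11d and Trim30a were also above wildtype in both homozygous mice, by 0.82, 0.69 and 0.88 on the log2 scale, and Oas1c was below, by -0.62. Iigp1 was 1.06 higher in homozygous than in heterozygous mice. In the wildtype pair 33 of these 47 genes were higher in mouse 39 (42.7% of all genes), with a median of 0.16.

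Genes of antigen presentation, which interferon gamma also induces, were divided. Nlrc5, the activator of class I genes, read 5.72 and 4.40 FPKM in homozygous, 3.56 and 3.39 in heterozygous and 2.89 and 2.09 in wildtype mice, an order without overlap, with a log2 difference of homozygous from wildtype of 1.00 (SE 0.23, adjusted p = 0.151 in limma). Tap1, the peptide transporter, which the authors list among known targets of wildtype p53, ran the other way. It read 11.3 and 11.0 FPKM in homozygous, 14.6 and 12.1 in heterozygous and 22.9 and 17.6 in wildtype mice. Its log2 difference of homozygous from wildtype was -0.84 (SE 0.17, adjusted p = 0.133 in limma). The class I gene H2-K1 lay at 357 to 472 FPKM in the 6 mice. B2m, the invariant chain of class I, read 8211 FPKM in homozygous mouse 47 and 2551 to 3338 in the other 5 mice, including homozygous mouse 49.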

How the data were processed

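RNA from the prostates of 6 mice, 2 per genotype, was measured, with genotypes as the labels give them. The authors prepared stranded mRNA libraries, sequenced them as read pairs and deposited gene-level FPKM per mouse, already scaled by exon length and mapped fragments. The submitters' processing notes name bcl2fastq, HISAT, Cufflinks and Cuffnorm and the build mm10 (GRCm38), and versions and annotation are not given in the sources used here. Fragment counts were not used, so the counting error of a value is unknown.

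Log2(FPKM + 0.1) of the 13818 genes with a mean of at least 1 FPKM went into limma (version 3.58.1, R 4.3.3), with 1 mean per genotype and an intensity trend in eBayes (3 residual and 2.77 prior degrees of freedom). This scale understates changes of low genes. Benjamini-Hochberg adjustment covered all tested genes. The labels name no batch. Nothing but the animal numbers says how the mice were related. Positions come from GENCODE M21.

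The genes and lists were chosen with earlier results of these data known. All 34 genes are given, and of the pathway lists the genes with an unadjusted F-test p under 0.05 and a 1.5-fold difference, with the 2 most abundant of each list. Alternatives were other pseudocounts (1 and 0.01), no minimum or a mean of at least 5 FPKM, quantile and median scaling, no trend, each gene alone, and leaving out mice. Tables were handled with Python 3.11.15, numpy 2.4.6 and pandas 2.3.3.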

Additional observations from a re-analysis of the deposited data

How the results depend on the processing

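No gene of the 33 had an adjusted p under 0.05 under any alternative, in limma or in the F-test on each gene alone. No paired analysis was possible because the animal numbers are not shared between genotypes. With 1 mouse left out in turn, the lone mouse of its genotype was assumed to vary like the others. The number at an unadjusted p under 0.05 then moved both ways for the 3 genotypes together and for homozygous mice against either other genotype. For heterozygous against wildtype mice it moved only up. The share of all genes moved too. With all 6 mice, the 3 genotypes together with the 1.5-fold criterion gave 1 of 33 with a pseudocount of 1 (7.47% of all genes in the same fit). With each gene alone it was 1 of 34 (4.82%). Heterozygous against wildtype mice gave 1 of 33 with no intensity trend (6.97%). Homozygous against wildtype mice gave 2 of 15 with a mean of at least 5 FPKM (19.0%). Homozygous against heterozygous mice gave 2 of 34 with each gene alone (5.36%). With 1 mouse left out, the median difference ran from -0.30 to 0.039 for heterozygous against wildtype mice. It ran from -0.011 to 0.32 for homozygous against wildtype and from 0.30 to 0.39 for homozygous against heterozygous mice. Leaving out a mouse of the third genotype could not move it. For heterozygous against wildtype mice it was 0.039 without mice 39 and 47 together. The genes ordered by allele number ran from 0 to 7 rising and from 0 to 2 falling, and were 10 and 1 without mice 39 and 47 together, where 12.4% and 16.9% of all genes were ordered so. The cause of these shifts was not tested, apart from the fewer genes or mice that a setting leaves. Usp18, Ddx58, Xaf1, Mx1 and Igtp were repeated in the comparisons where they had an unadjusted p under 0.05. Some of the 117 repeats could not move a difference. They changed only the minimum or the trend, or left out a mouse of the third genotype. The direction was kept in each repeat, but the unadjusted p under 0.05 was not. Against wildtype mice Usp18 kept it in 8 of 14 alternatives, Mx1 in 8 of 14, Ddx58 in 13 of 15 and Xaf1 in 13 of 15. Against heterozygous mice Usp18 kept it in 7 of 14, Igtp in 10 of 15, Ddx58 in 12 of 15 and Xaf1 in 12 of 15. Other genes named with a difference were not repeated one by one. With no fragment counts, the counting error of a value is unknown.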
